A study of Saccharomyces cerevisiae with 48 samples.

Results

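The ribosomal DNA (rDNA) repeat of budding yeast was represented here by 5 of the 6465 intervals counted in each Saccharomyces cerevisiae library. They were RDN37-2 (YNCL0020C), the primary transcript of the repeat, RDN25-2 (YNCL0021C), RDN18-1 (YNCL0016C), ETS2-2 (YNCL0019C) and the small open reading frame YLR154C-H. All 5 were chosen by name after their read counts had been seen in these same libraries, where ETS2-2 and YLR154C-H stood out in several strain comparisons and RDN18-1 in the response of RDY73. Those comparisons are therefore given below as levels, with no test, and tests are kept to comparisons that did not enter the choice, although they share libraries with those that did.

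SLAM-seq measures newly made RNA: cells take up 4-thiouracil (4tU), alkylation makes the labelled base read as C in place of T, and a T>C read is one with at least 2 such conversions. Cultures received 1 mM 3-indoleacetic acid (IAA), an auxin, or its solvent DMSO for 3 h, then 5 mM 4tU for 6 min by the sample labels, while the methods give a shorter labelling time. Each of the 16 groups, which pair 8 strains with both treatments, held 3 libraries lettered A to C, and fission yeast (Schizosaccharomyces pombe) cells were mixed in at 1 part to 19 parts by optical density as a spike-in. All strains carried pGPD1-OsTIR1:HIS3 and degron-tagged BDF2-3xV5-mAID::KanMX and BDF1-3xV5-mAID::URA3, so that IAA leads to breakdown of Bdf1 and Bdf2, the yeast BET proteins. The other strains had, beside the tagged genes, a BDF1 copy with a TRP1 marker under the BDF1 promoter. It carried a mutated first bromodomain (BD1) in RDY235, a mutated second one (BD2) in RDY236 and both in RDY237, a deletion of B and BID in RDY247, and an ET domain with 2 acidic residues substituted in RDY249 or 4 residues in RDY251. The copy was unmodified in RDY234, and RDY73 had none. Each strain is 1 stock, so a difference between strains cannot be told apart from any other difference between the stocks, and the number of rDNA repeats was not measured. The methods describe the replicates as biological.

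In budding yeast the rDNA lies on chromosome XII as a long tandem array, of which the reference genome writes out only a pair of repeats. RNA polymerase I makes a 35S precursor from each repeat, running from the 5′ external transcribed spacer through 18S, 5.8S and 25S rRNA to the 3′ external transcribed spacer (3′ ETS), and cleavage and trimming then release the mature rRNAs. 5S rRNA is made by RNA polymerase III from the opposite strand, and silencing by Sir2 holds down RNA polymerase II transcription in the spacers. Mature rRNA has no poly(A) tail, so in a library of 3′ ends primed on poly(A) these intervals report tailed or otherwise captured RNA of the repeat and not the rRNA pool.

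The intervals overlap one another, so they are not independent measurements. By the R64 annotation all 5 lie on the minus strand of chromosome XII, and nearly all counted intervals (6460 of 6462 matched) ran 250 bases past the annotated 3′ end of the gene. RDN37-2 spanned XII:460462-467569 and wholly contained RDN25-2 (XII:460673-464318), the mature large-subunit rRNA, and ETS2-2 (XII:460462-460922), the 3′ ETS. RDN25-2 held 70.1% to 93.1% of the reads of RDN37-2 (median 82.8%) over the 48 libraries, but only 13.8% to 48.6% of its T>C reads (median 30.5%). ETS2-2 held 0.156% to 4.99% of the reads of RDN37-2. RDN18-1 (XII:455683-457732), the small-subunit rRNA, lies in the other written repeat, inside RDN37-1. YLR154C-H (XII:468577-468958) is annotated as protein-coding and runs antisense to the 5S gene RDN5-2. Between positions 450000 and 490000 of the chromosome 39 intervals were counted, of which 19 passed the filter on T>C reads, all 5 named here among them, and 7 had no read in any library. The other intervals with the most reads over the 48 libraries were RDN37-1 with 676078, RDN25-1 with 604798 and ITS2-2, an internal spacer of the precursor, with 572947, against 735671 for RDN37-2. ITS2-2 shares 250 bases with RDN25-2 through its extension and was listed with 85.8% to 96.9% as many reads in each library. How many reads were counted under both was not tested.

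The gene part of ETS2-2 is shown because it carries a match to CCGGGTAA, the sequence bound by Reb1, a factor known in termination, in capitals at bases 108 to 115 of the R64 sequence at XII:460712-460922. That motif, searched on both strands, is present in 14 of the 6419 windows formed by the first 211 bases of a gene (0.218%), and the match is a description of the letters only.
ETS2-2: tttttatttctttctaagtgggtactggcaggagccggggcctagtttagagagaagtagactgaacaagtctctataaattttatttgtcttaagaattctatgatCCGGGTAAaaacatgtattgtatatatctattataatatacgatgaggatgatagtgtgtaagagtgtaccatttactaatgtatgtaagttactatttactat

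The extension past the 3′ ETS is shown because it is the one stretch where RDN37-2 and RDN37-1 can be told apart. The 461 bases of ETS2-2 and ETS2-1 are identical over the first 368, and 63 of the last 93 differ, in capitals below. The same 63 bases are the only differences between RDN37-2 and RDN37-1, while RDN18-1 matches RDN18-2 over all 2050 bases and RDN25-2 matches RDN25-1 over all 3646.
ETS2-2 (XII:460462-460554): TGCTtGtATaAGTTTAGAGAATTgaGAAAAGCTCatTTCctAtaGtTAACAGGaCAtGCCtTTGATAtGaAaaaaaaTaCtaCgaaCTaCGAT
ETS2-1 (XII:451325-451417): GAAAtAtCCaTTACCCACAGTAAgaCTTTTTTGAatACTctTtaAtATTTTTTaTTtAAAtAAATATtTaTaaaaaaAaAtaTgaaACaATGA

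The open reading frame of YLR154C-H, at XII:468827-468958, is shown because its identity with other genes sets how its reads could be placed, with its 32 T, the bases at which label can be read, in capitals. It is part of the first 148 bases that the interval shares, base for base, with YLR156C-A, YLR157C-C and YLR159C-A further along the chromosome. Of the 105712 reads listed under YLR154C-H, 105277 (99.6%) were marked as mapping to several places, while YLR156C-A and YLR159C-A had no read and YLR157C-C had 19, and none of these 3 passed the filter on T>C reads. Values of YLR154C-H therefore stand for any of these near-identical genes. The use of strand in counting is not given in the sources used here and was not tested. The antisense RDN5-2, which covers this open reading frame, had 35 reads, while RDN5-1, another 5S gene on that strand, had 66352. How reads were placed among the 5S genes was not tested, so the low count of RDN5-2 does not show a difference by strand. TAR1, antisense to RDN25-1 over most of its interval, had 59 reads against 604798.
YLR154C-H: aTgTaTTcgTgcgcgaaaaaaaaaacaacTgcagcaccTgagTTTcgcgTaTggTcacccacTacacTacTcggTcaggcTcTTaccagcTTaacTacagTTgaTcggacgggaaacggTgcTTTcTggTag

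The other 4 intervals had few reads marked as mapping to several places, 2.77% of all reads of ETS2-2 over the 48 libraries together (up to 5.56% in a library) and 0.0578% for RDN37-2, the highest of the rest (up to 0.189%), although RDN18-1 and RDN25-2 are identical to their copies. For these rRNAs the deposited counts listed nearly equal reads under both copies, with a ratio of RDN25-2 to RDN25-1 of 0.905 to 1.22 and of RDN18-1 to RDN18-2 of 0.628 to 1.14 per library. Other parts of the identical stretch were listed unevenly, ETS1-1 with 11600 reads and ETS1-2 with 40969, RDN58-1 with 51417 and RDN58-2 with 21676. The internal spacers were nearer even, ITS1-1 with 6061 and ITS1-2 with 7152, ITS2-1 with 544255 and ITS2-2 with 572947. ETS2-2 had 12091 reads over the 48 libraries and ETS2-1 had 1503.

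Libraries held 3301563 to 10699839 S. cerevisiae reads, 42821 to 1163027 T>C reads and 336128 to 1242931 S. pombe reads. The library numbers fell into 2 series, a later one with RDY73, RDY247 and RDY249 (18 libraries) and an earlier one with the other 5 strains (30 libraries), so a comparison across them cannot be told apart from the series. The presence of a BDF1 copy was checked by TRP1, at 50.4 to 278 normalised reads per group in the strains with a copy and 8.87 and 20.3 in RDY73. BDF1 itself was at 526 to 2446 and at 189 and 568, which overlap. Which variant of BDF1 a library carried was not checked. The T>C share of RNA from cultures with no 4tU is not analysed here.

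Below, a normalised read is a deposited count divided by the size factor that the S. pombe reads give. A gene was called where edgeR's quasi-likelihood test over all genes gave an adjusted p under 0.05 and the change was at least 2-fold. Under this scaling a lower value means less S. cerevisiae RNA per S. pombe RNA, and less RNA per cell and fewer cells cannot be told apart.

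Under IAA, T>C reads of the repeat were called lower mainly in the strains where those of most genes were. The intervals were lowered by less than the median gene there, or not lowered, except YLR154C-H in RDY237 and RDY251. Over the 7 strains with a BDF1 copy, 11 of the 35 pairs of interval and strain were called lower and none higher. RDN25-2 was called in 4 strains, RDN37-2 in 3, YLR154C-H in 2, and RDN18-1 and ETS2-2 in RDY251 alone. Libraries of RDY235, RDY236 and RDY237 took part in the choice of ETS2-2 and YLR154C-H, so values of these intervals there are a description. In RDY251 all 5 intervals were called, where 99.1% of 5118 genes were. The count was 3 of 5 in RDY237 against 90.4% of genes, 2 of 5 in RDY249 against 94.5%, 0 of 5 in RDY247 against 76.5%, 1 of 5 in RDY236 against 5.2%, and 0 of 5 in RDY235 and RDY234 against 0% in each. Scaled by S. cerevisiae library sizes in place of the spike-in (TMM), the median gene moved to -0.13 in RDY251 and near 0 in the other strains with a BDF1 copy, none of the 35 was called lower and 10 were called higher, so each direction below holds against the spike-in.

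RDN37-2 sums all parts of its repeat, RDN25-2, ETS2-2 and RDN18-2, the other 18S interval, included. RDN18-2 alone made up 65.3% ± 12.9 of the T>C reads of RDN37-2 in RDY251 under IAA and 38.7% ± 2.5 under DMSO (SD, n = 3 each), so the change of RDN37-2 is not that of 1 precursor RNA and carries the open division of reads between the 18S copies described below. Its normalised T>C reads were 65.7, 186 and 118 in RDY251 under IAA, against 441, 616 and 744 under DMSO, with no overlap (log2 change -2.30 ± 0.25 (SE), adjusted p = 1.19e-14, edgeR). In RDY249 they were 686, 545 and 365 under IAA, against 1761, 1123 and 1320 under DMSO (-1.40 ± 0.24, adjusted p = 1.06e-07). In RDY237 they were 501, 475 and 909 under IAA, against 1138.3, 1342 and 1371 under DMSO (-1.03 ± 0.24, adjusted p = 3.91e-05), and replicate C under IAA stood apart from the others. This last call was lost, with a log2 change of -0.87 to -0.998, without either of 2 IAA or 2 DMSO libraries of RDY237, and also with both annotated copies summed (-0.9999) or with S. pombe reads scaled by their sum (-0.98) or by their T>C reads (-0.97). In RDY236 the change was -0.61 (adjusted p = 0.0259), below 2-fold, and in RDY234 the log2 change was -0.07 ± 0.23.

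RDN25-2 had the lowest T>C share of the 5, and in RDY236, RDY237, RDY249 and RDY251 its T>C reads were lowered by more than those of RDN37-2, RDN18-1 and ETS2-2. It had 15.997, 25.6 and 20.5 normalised T>C reads in RDY251 under IAA, against 121, 183 and 245 under DMSO (8.90-fold lower, log2 change -3.15 ± 0.30, adjusted p = 7.17e-18, edgeR). In RDY249 the values were 231, 183 and 114 under IAA, against 740, 508 and 551 under DMSO (-1.78 ± 0.26). In RDY237 they were 140, 162 and 188 under IAA, against 393, 491 and 505 under DMSO (-1.50 ± 0.25). None of these groups overlapped. The call in RDY236 (-1.18 ± 0.24) rested on DMSO replicate B, at 952 normalised T>C reads against 397 and 453 in the others, and without it the change was -0.68. In RDY247 the IAA libraries had 241, 242 and 636 against 566, 562 and 427 under DMSO, which overlap (-0.46 ± 0.24). Replicate C of RDY247 under IAA, which also held 78097 normalised reads of RDN37-2 against 21391 and 21959 in the others, decided that value: without it the change was -1.10 and was called (adjusted p = 1.3e-04).

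RDN18-1 had the highest log2 change of the 5 in RDY237, RDY247, RDY249 and RDY251. It had 66.3, 78.5 and 99.0 normalised T>C reads in RDY251 under IAA, against 194, 240 and 193 under DMSO (2.57-fold lower, log2 change -1.36 ± 0.28, adjusted p = 2.92e-06, edgeR), which do not overlap. In RDY249 it had 205, 167 and 92.0 under IAA, against 290, 185 and 178 under DMSO (-0.50 ± 0.28), which overlap. In RDY247 the log2 change was 0.07 ± 0.26, while the median gene there had -1.30. In RDY237 it was -0.25 ± 0.27, against a median of -1.61. Ranked from the least lowered of the 5118 genes, RDN18-1 was number 63 in RDY247, 87 in RDY237, 89 in RDY251 and 92 in RDY249.

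ETS2-2, the spacer that is removed early from the precursor, had few T>C reads, 1 to 183 per library. In RDY251 it had 1.71, 3.20 and 7.61 normalised T>C reads under IAA, against 10.4, 21.4 and 22.0 under DMSO (log2 change -2.06 ± 0.44, adjusted p = 8.27e-06, edgeR). These groups do not overlap, and they rest on 20 reads under IAA and 66 under DMSO. In RDY249 it had 35.9, 19.4 and 13.1 under IAA, against 41.5, 39.08 and 37.0 under DMSO (-0.85 ± 0.36, adjusted p = 0.0197), below 2-fold. In RDY236 its change was positive, 0.64 ± 0.27, also below 2-fold and given as a description, since these libraries took part in its choice. In RDY236 62.8, 73.5 and 144 normalised T>C reads under IAA overlapped 57.2, 49.1 and 74.2 under DMSO.

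YLR154C-H responded differently from strain to strain. In RDY251 it had 5.71, 6.40 and 7.61 normalised T>C reads under IAA, against 92.7, 86.9 and 172 under DMSO (17.4-fold lower, log2 change -4.12 ± 0.37, adjusted p = 1.28e-18, edgeR). It was the only one of the 5 to be lowered more than the median gene in RDY251 (-3.48) and in RDY237 (-1.61). In RDY237 it had 73.3, 72.4 and 103 under IAA, against 238, 263 and 294 under DMSO (-1.67 ± 0.28). This is a description, since the RDY237 libraries took part in the choice of YLR154C-H. In RDY249 it had 219, 118 and 152 under IAA, against 295, 196 and 238 under DMSO (-0.59 ± 0.27), which overlap, while the median gene had -1.81. In RDY236, again as a description, it had 225, 284 and 524 under IAA, against 141, 163 and 318 under DMSO. The change was 0.73 ± 0.26, below 2-fold, and without DMSO replicate C it was 1.18 and past the call rule.

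**Figure D1:**
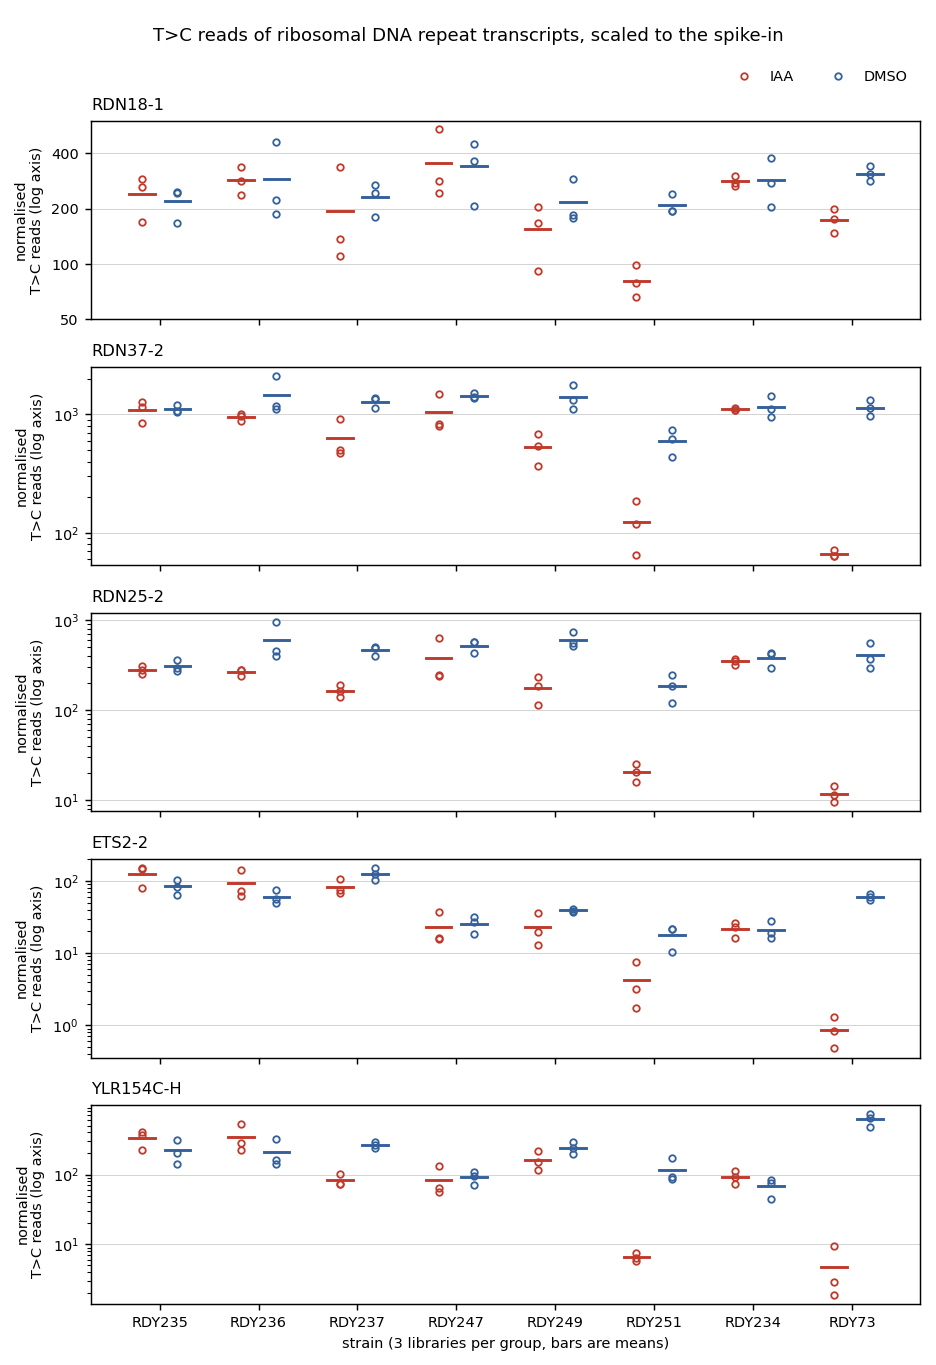
Normalised T>C reads (log axis) of the 5 intervals in each library, by strain, with IAA left of DMSO, where points are the 3 libraries of a group and bars their means. RDY251 under IAA lies below RDY251 under DMSO in all 5 panels, RDN18-1 varies least between groups, and YLR154C-H is highest in RDY73 under DMSO (477, 740 and 655).

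**Figure D2:**
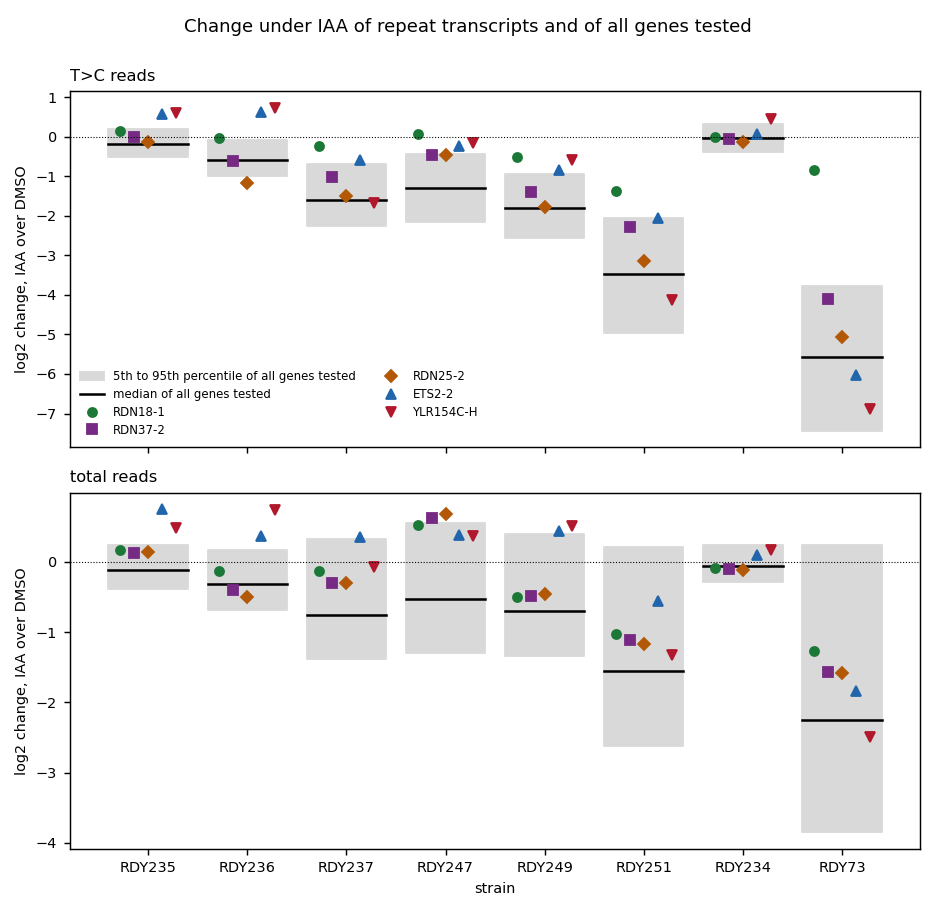
Log2 change under spike-in scaling, IAA over DMSO, of the 5 intervals by strain for T>C reads and total reads, beside the median (line) and the 5th to 95th percentile (grey) of all genes tested. RDN18-1 lies above the median gene in all 8 strains for T>C reads, whereas YLR154C-H lies below it in RDY237, RDY251 and RDY73.

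The difference between responses was tested directly, as the IAA response of a strain over that of RDY234, whose libraries also took part in the choice of ETS2-2 and YLR154C-H. For RDY235, RDY236 and RDY237 this difference is made of the same strain comparisons that put ETS2-2 and YLR154C-H in view. The values of these intervals in those strains are therefore a description. For RDY251 all 5 differences were called lower, as for 99% of genes, with YLR154C-H at -4.56 ± 0.49 and RDN18-1 at -1.34 ± 0.38 on the log2 scale. For RDY249 the 3 called were RDN25-2 (-1.63), RDN37-2 (-1.33) and YLR154C-H (-1.03), against 92.8% of genes, and the call of YLR154C-H was lost without any one of 5 libraries (-0.79 to -0.98). For RDY237 RDN25-2 (-1.36 ± 0.35) was called and YLR154C-H (-2.12) was past the call rule as a description, against 88.1% of genes. None of the 5 was called for RDY247 (69.8% of genes), RDY236 (0%) or RDY235 (0%). RDY247 and RDY249 lie in another library series than RDY234, and the difference of responses leaves out a constant offset between the series only.

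Total reads also hold RNA made before labelling, and under IAA in RDY251 they moved less than T>C reads for each interval. In RDY251, 4 of the 5 intervals were called lower under IAA against 76.5% of 5907 genes. They were YLR154C-H (log2 change -1.32 ± 0.23), RDN25-2 (-1.17 ± 0.30), RDN37-2 (-1.11 ± 0.28) and RDN18-1 (-1.03 ± 0.30), all beside a median gene at -1.55. ETS2-2 had 61.7, 64.0 and 87.8 normalised reads under IAA, against 82.3, 107 and 128 under DMSO (-0.56 ± 0.26, adjusted p = 0.0374, edgeR). The rRNA calls sat near the 2-fold limit: without DMSO replicate C or without IAA replicate A of RDY251 YLR154C-H was the only one called. RDN18-1 was at -0.78, below 2-fold, with both 18S copies summed. In the other strains 0 of 5 were called lower, against 24.5% of genes in RDY237, 20.1% in RDY249, 13.7% in RDY247, 0.83% in RDY236, and 0.0169% each in RDY235 and RDY234. In RDY237 the total reads of ETS2-2 were 501, 566 and 751 under IAA, against 508, 465 and 454 under DMSO, which overlap. The log2 change was 0.35 ± 0.22 beside a median gene at -0.76. In RDY249 ETS2-2 had 182 to 311 normalised total reads under IAA, against 159 to 177 under DMSO. YLR154C-H there had 3108 to 4558 under IAA, against 2386 to 2829 under DMSO. Neither overlapped and neither was called, beside a median gene at -0.69, and the share of genes higher without overlap was not counted.

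The share of an interval's reads that carry label needs no spike-in. Over the 7 strains, 17 of 35 pairs had all 3 IAA libraries below all 3 DMSO libraries. They were 6 for RDN25-2, 4 for RDN37-2, 3 each for ETS2-2 and YLR154C-H, and 1 for RDN18-1. By strain they were 4 of 5 intervals in RDY251, beside 95.3% of genes, 4 in RDY249 (90.1%), 4 in RDY237 (87%), 3 in RDY247 (76%), 1 in RDY236 (32.3%), 1 in RDY235 (11.2%) and 0 in RDY234 (2.97%). With only 5 intervals, some of which overlap, these counts cannot be set apart from the shares of genes, and nothing is read from them. In the opposite direction ETS2-2 in RDY236 had 27.99% ± 2.24 under IAA and 24.1% ± 1.8 under DMSO (SD, n = 3 each), without overlap, beside 0.645% of genes. With 3 libraries against 3, the exact permutation test (two-sided) cannot go below p = 0.1, and no adjusted p fell below 0.11. YLR154C-H had a T>C share of 0.992% ± 0.055 in RDY251 under IAA and 6.87% ± 0.91 under DMSO (SD, n = 3 each), and in RDY237 3.64% ± 0.19 under IAA and 10.96% ± 0.24 under DMSO. ETS2-2 had 5.48% ± 2.97 in RDY251 under IAA and 16.6% ± 3.7 under DMSO, and in RDY249 9.36% ± 2.17 under IAA and 23.1% ± 1.7 under DMSO. RDN25-2 had 0.553% ± 0.10 under IAA and 2.09% ± 0.22 under DMSO in RDY251. RDN18-1 had 17.7% ± 2.2 in RDY251 under IAA and 22.4% ± 2.6 under DMSO, and 14.81% ± 0.93 under IAA and 14.7% ± 1.0 under DMSO in RDY249, with overlapping libraries in both strains, while in RDY247 its share was lower without overlap, at 14.9% ± 2.6 under IAA and 18.8% ± 1.6 under DMSO. The identical RDN18-2 had 12.4% ± 6.2 in RDY251 under IAA and 23.3% ± 2.2 under DMSO. Over whole libraries the T>C share was 1.89% to 2.22% in RDY251 under IAA and 7.09% to 8.05% under DMSO.

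**Figure D3:**
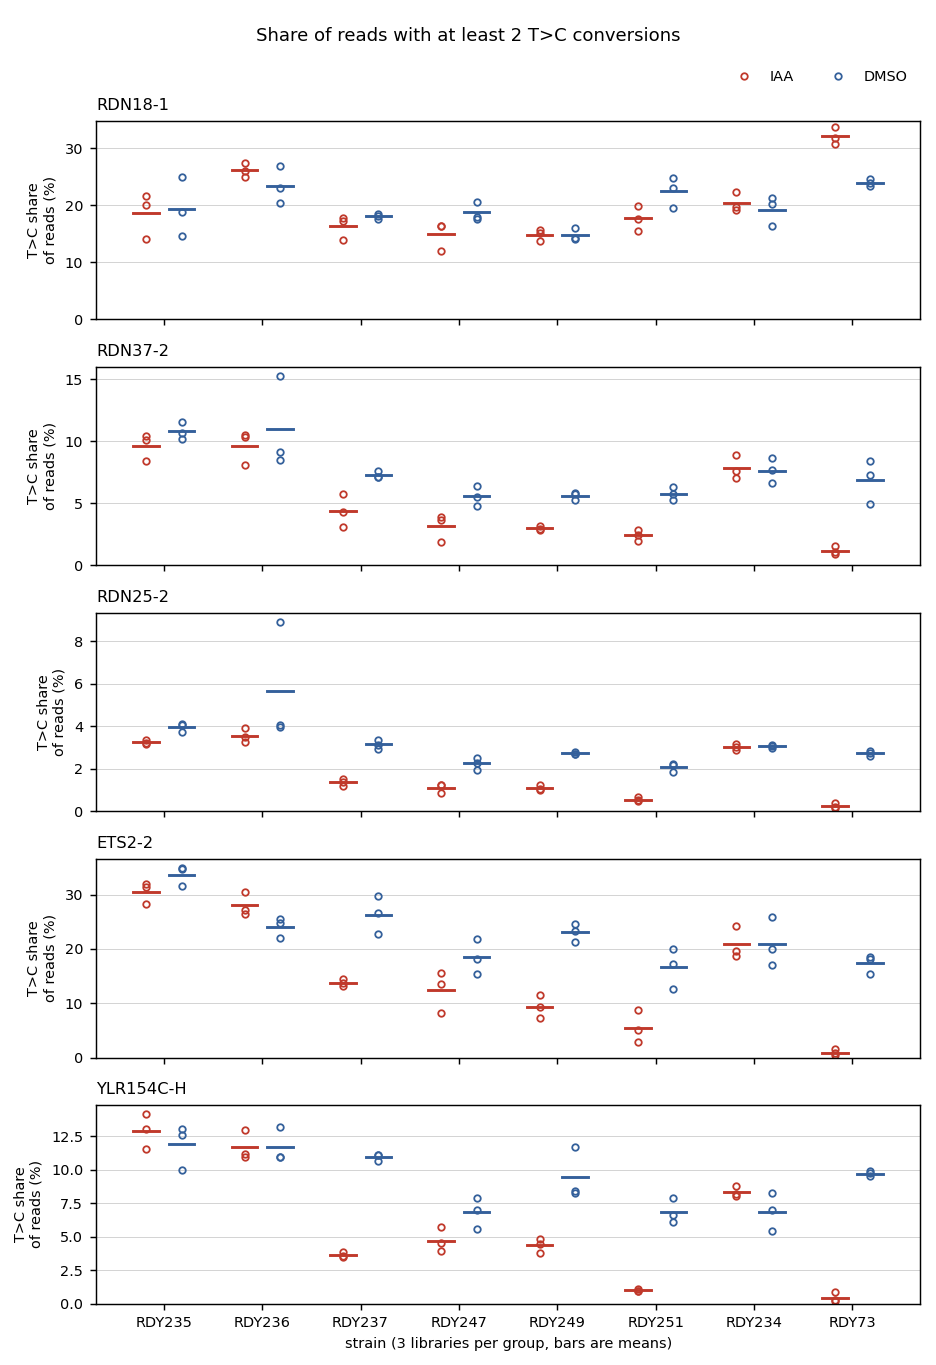
T>C reads as a percentage of all reads of each interval, by strain, with IAA left of DMSO, where points are libraries and bars the means of 3. RDN25-2 shows the share lower under IAA without overlap in 6 of the 7 strains with a BDF1 copy, where 11.2% to 95.3% of genes do, and RDN18-1 lies at 14.7% to 32.0% in the group means.

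Strains were compared under the same treatment where both lay in 1 library series. Under IAA all 5 intervals had fewer T>C reads in RDY251 than in RDY234, as did 99.2% of genes. The log2 differences were -4.07 ± 0.30 for RDN25-2, -3.78 ± 0.39 for YLR154C-H, -3.18 ± 0.26 for RDN37-2, -2.32 ± 0.44 for ETS2-2 and -1.79 ± 0.28 for RDN18-1, all smaller in size than the median gene at -4.39. Total reads under IAA were called lower for RDN18-1 (-1.60), RDN25-2 (-1.55) and RDN37-2 (-1.54), 3 of 5 against 84.9% of genes. Under DMSO 1 of 5, RDN25-2, was called lower in T>C reads (-1.06 ± 0.25) against 42% of genes, and that call was lost without any one of 3 libraries (-0.84 to -0.99). Total reads under DMSO were called for 0 of 5, against 12.7% of genes. YLR154C-H under DMSO had 92.7, 86.9 and 172 normalised T>C reads in RDY251, against 75.6, 84.4 and 44.2 in RDY234, without overlap (log2 difference 0.78), below 2-fold. The RDY234 libraries are those beside which ETS2-2 and YLR154C-H were chosen.

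RDY247 is set beside RDY73 under DMSO as a description, because the same RDY73 libraries entered the choice of YLR154C-H through RDY249. In T>C reads 2 of 5 intervals were past the call rule and lower in RDY247, and 0.117% of genes (6 of 5118) were, those intervals included. YLR154C-H had 96.2, 108 and 69.8 normalised T>C reads in RDY247, against 477, 740 and 655 in RDY73 (6.83-fold lower, log2 difference -2.77). ETS2-2 had 26.9, 31.8 and 18.2 in RDY247, against 60.2, 66.7 and 55.3 in RDY73 (-1.24), a difference of -1.04 without RDY247 DMSO replicate C and of -0.995 with both annotated copies summed. In total reads the same 2 intervals were past the rule, as were 0.119% of genes. YLR154C-H had 1219, 1539 and 1250 normalised reads in RDY247, against 4897, 7783 and 6624 in RDY73 (-2.27), and ETS2-2 had 123, 176 and 118, against 332, 360 and 362 in RDY73 (-1.33). RDN37-2 was at 0.33 and RDN25-2 at 0.35 in T>C reads. In RDY249, the other strain of that series, YLR154C-H was at 295, 196 and 238 normalised T>C reads under DMSO, a log2 difference from RDY73 of -1.36. YLR154C-H was the only gene at least 2-fold lower there (1 of 5118, or 0.0195%), which is what brought it into the choice.

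The levels in RDY73, which has no BDF1 copy, are also given with no test, and 4 of 5 intervals were at least 2-fold lower under IAA, as were 99.9% of genes. Under IAA YLR154C-H had 2.85, 1.92 and 9.53 normalised T>C reads, against 477, 740 and 655 under DMSO. From 32 T>C reads under IAA and 1855 under DMSO its level was 117-fold lower, with an exact 95% interval of 82.7 to 172 that covers counting error only. ETS2-2 had 0.476, 1.28 and 0.828 under IAA, against 60.2, 66.7 and 55.3 under DMSO, or 5 reads against 183, which is 74.0-fold lower (31.1 to 231). RDN37-2 had 64.2, 63.4 and 71.7 under IAA, against 970, 1144.3 and 1321 under DMSO (log2 change -4.10), and RDN18-2 made up 77.4% ± 3.1 of these under IAA and 28.9% ± 8.6 under DMSO (SD, n = 3 each). RDN25-2 had 9.51, 11.5 and 14.5 under IAA, against 296, 556 and 368 under DMSO (-5.08). RDN18-1 had 199, 175 and 147 under IAA, against 339, 281 and 310 under DMSO (-0.84), where the median gene had -5.57. Together RDN37-2 and RDN37-1 took 0.972% ± 0.0227 of all T>C reads of RDY73 under IAA and 0.276% ± 0.0287 under DMSO (SD, n = 3 each). ETS2-2 and YLR154C-H were below the median gene, and RDN18-1 was number 3 from the top of 5118.

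The high T>C count of RDN18-1 in RDY73 under IAA did not hold in the identical 18S interval of the other written repeat. RDN18-1 had 1045 T>C reads there and RDN18-2 had 313, while under DMSO they had 936 and 984. T>C reads made up 31.9% of the reads of RDN18-1 and 8.62% of those of RDN18-2 under IAA, although total reads were nearly even, with a ratio of 0.879 to 0.942 per library. Per library the T>C ratio of RDN18-1 to RDN18-2 was 2.77 to 3.94 in RDY73 under IAA and 0.714 to 1.29 under DMSO, and in the other 14 groups no library passed 1.93. With both copies summed, RDY73 had 225 ± 24.8 normalised T>C reads under IAA and 640 ± 127 under DMSO (SD, n = 3 each). In RDY251 the sums were 167 ± 62.0 under IAA and 439 ± 53.7 under DMSO, and in RDY247 789 ± 326 under IAA and 752 ± 277 under DMSO. How reads were divided between identical sequences was not tested, so levels of RDN18-1 stand for the listed interval only.

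**Figure D4:**
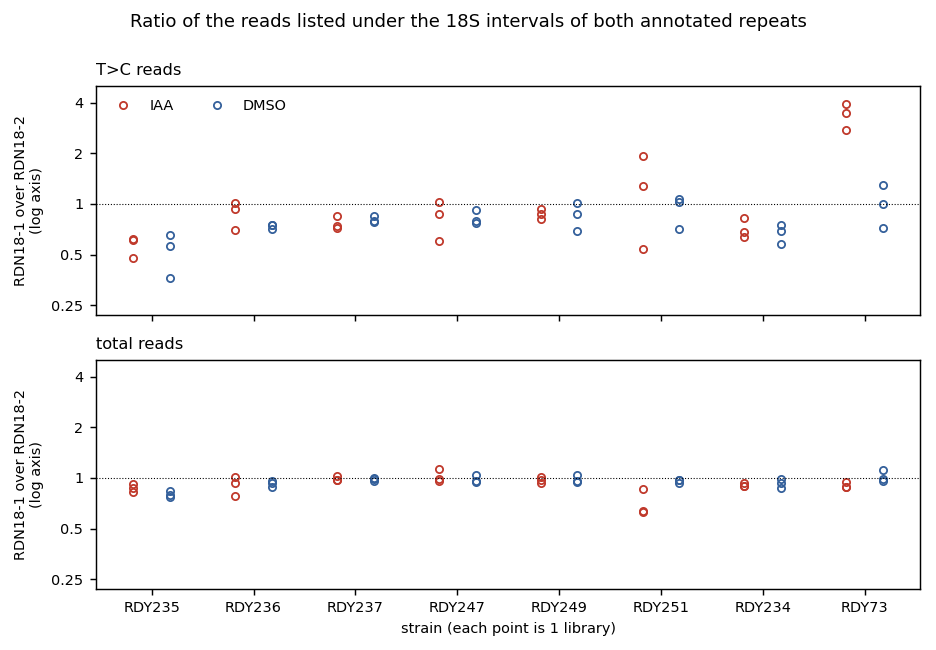
Ratio of reads listed under RDN18-1 to reads listed under the identical RDN18-2, on log axes, for T>C reads and total reads, where each point is 1 library and IAA is left of DMSO. For T>C reads the 3 IAA libraries of RDY73 lie at 2.77 to 3.94, and for total reads all 48 libraries lie at 0.628 to 1.14.

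ETS2-2 and YLR154C-H were both higher in the bromodomain mutant strains than in RDY234, again given with no test. ETS2-2 had 79.4, 153 and 148 normalised T>C reads in RDY235 under IAA, against 26.3, 23.4 and 16.1 in RDY234, and under DMSO 64.5, 84.1 and 105 against 28.0, 16.02 and 19.1. In RDY236 it had 62.8, 73.5 and 144 under IAA and 57.2, 49.1 and 74.2 under DMSO, and in RDY237 68.6, 74.8 and 108 under IAA and 151, 124 and 103 under DMSO. Every one of these libraries lay above all RDY234 libraries of its treatment. The log2 differences of ETS2-2 from RDY234 were 2.53, 2.10 and 1.94 for RDY235, RDY236 and RDY237 under IAA, and 2.01, 1.52 and 2.59 under DMSO. Those of YLR154C-H were 1.86, 1.90 and -0.15 under IAA, and 1.70, 1.61 and 1.96 under DMSO. At least 2-fold higher were 2 of 5 intervals in RDY235 and RDY236 under both treatments and in RDY237 under DMSO, and 1 of 5 in RDY237 under IAA. The share of all genes at least 2-fold higher was 0.528% under IAA and 0.293% under DMSO in RDY235, 0.703% under IAA and 2.07% under DMSO in RDY236, and 0.43% under IAA and 0.899% under DMSO in RDY237, and nothing is read from it, since these differences chose the intervals. RDN37-2, RDN25-2 and RDN18-1 lay within 2-fold of RDY234 in these 6 comparisons, except RDN25-2 in RDY237 under IAA (-1.08). Total reads of ETS2-2 followed, at 501, 566 and 751 normalised reads in RDY237 under IAA, against 134, 96.6 and 86.4 in RDY234.

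Over the 16 groups the mean normalised T>C reads of ETS2-2 ran, in rising order, through RDY73 under IAA (0.861), RDY251 under IAA (4.18), RDY251 under DMSO (17.9), RDY234 under DMSO and IAA (21.0 and 22.0), RDY249 and RDY247 under IAA (22.8 and 23.2), RDY247 and RDY249 under DMSO (25.6 and 39.2), RDY236 and RDY73 under DMSO (60.1 and 60.7), RDY237 under IAA (84.0), RDY235 under DMSO (84.6), RDY236 under IAA (93.4), RDY237 under DMSO (126) and RDY235 under IAA (127). The neighbours at both ends of the RDY251 under IAA level did not overlap, nor did those around RDY249 under DMSO or above RDY73 under DMSO, while the other neighbours did. For YLR154C-H only RDY251 under IAA (6.58) and RDY234 under DMSO (68.0) were neighbours without overlap, with RDY73 at both ends, 4.77 under IAA and 624 under DMSO. RDN25-2 was lowest in RDY73 under IAA (11.8) and RDY251 under IAA (20.7), which overlapped neither each other nor the next group, RDY237 under IAA (163), and all higher neighbours overlapped, up to RDY236 under DMSO (601). RDN37-2 had a single break, between RDY251 (123) and RDY249 (532) under IAA, within a range of 66.4 in RDY73 under IAA to 1469 in RDY236 under DMSO. RDN18-1 had none, from 81.2 in RDY251 under IAA to 355 in RDY247 under IAA.

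Likeness was measured as Pearson's r between log2 group means of normalised T>C reads, with 1 added, over the 16 groups, which share libraries, depth and scaling with one another. Outside the repeat the genes most like ETS2-2 were PAU3 (0.93), SUL2 (0.92), PAU4 (0.92), YLL053C (0.91) and RNR2 (0.91), where the median of 5099 genes was 0.79. Those most like YLR154C-H were YGR050C (0.93), ERG3 (0.93), SNR50 (0.93), YMR181C (0.93) and RRD2 (0.93), with a median of 0.87. RDN18-1 was least like the rest, with NFG1 (0.85), GCV2 (0.83), TPO5 (0.82), YBR096W (0.82) and ADH5 (0.81) first and a median of 0.68. Among themselves ETS2-2 and YLR154C-H had r = 0.89, beside their medians of 0.79 and 0.87 with genes outside the repeat. Both were chosen for their levels in groups that enter r, so nothing is read from this value. ETS2-2 and RDN18-1 had 0.47, and the other pairs measured had 0.59 to 0.86.

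Genes whose products make, silence or process the repeat's RNA fell with the rest of the genome. The 7 RNA polymerase I subunit genes tested had no call in RDY234, RDY235 or RDY236, and all 7 were called lower in T>C reads under IAA in RDY237 (90.4% of genes), RDY247 (76.5%), RDY249 (94.5%) and RDY251 (99.1%), so these counts lie near those of the genome. RPA43, a subunit that meets the initiation factor Rrn3, was lowered most in RDY251 (-3.72 ± 0.30), and the median of the 7 was -3.36 beside -3.48 for all genes. Of 9 initiation factor genes 9 were lower in RDY237, RDY249 and RDY251 and 7 in RDY247, while RRN5, of the upstream activating factor, was the one called in RDY236 (-1.25 ± 0.33), where 5.2% of genes were. All 10 genes of rDNA chromatin and upkeep were called lower in those 4 strains, beside the same shares of genes, among them SIR2, which silences the repeat (-4.11 ± 0.40 in RDY251) and NSI1, a terminator factor (-3.93 ± 0.37), with a median of -3.69. All 10 genes of the nuclear exosome, the TRAMP complex and the 3′ ETS nuclease Rnt1 were likewise called lower in the same 4 strains, where 76.5% to 99.1% of genes were, with a median of -3.77 in RDY251. Between RDY247 and RDY73 under DMSO the one call in the 4 lists was RPA14, higher in RDY247 (1.22 ± 0.25), and between RDY251 and RDY234 under DMSO 3 of 7, 5 of 9, 5 of 10 and 6 of 10 genes of the lists were called lower, beside 42% of all genes. Of the other named open reading frames of the repeat 2 of 6 were counted, TAR1 with 59 reads and YLR154C-G with 7746, and neither passed the filter on T>C reads.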

How the data were processed

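Total RNA of 48 libraries (8 strains, IAA or DMSO, 3 libraries each) was analysed as 3′ mRNA-seq. Per the labels and methods, the authors trimmed reads with fastp 0.23.2, mapped them with SLAM-DUNK to R64 and ASM294v2, and deposited, for each interval, counts of all reads, of T>C reads and of multimapping reads. The labelling time is 6 min in the labels and shorter in the methods. How reads were assigned between identical repeats is not given in the sources used here.

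Counts were tested with edgeR 4.0.16 (R 4.3.3; quasi-likelihood, 1 coefficient per group, all 48 libraries). Size factors (0.567 to 2.41) were medians of ratios over 4955 S. pombe genes. Genes with a mean count of at least 10 were kept (5118 for T>C reads, 5907 for all reads), and p-values were adjusted by Benjamini-Hochberg over them. SE was the log2 change over the square root of F. Exact intervals are 95% and reflect counting error alone, because the reads carry no molecular identifiers and are not separate molecules. For RDY251 under IAA and DMSO the procedure was tested on simulated data: in T>C counts of 5118 genes it called 50 of 50 genes changed 8-fold and 48 of 50 changed 2.83-fold in each direction, and 2 of 4918 unchanged ones. Simulated counts were drawn around each gene's mean over all 48 libraries, with most genes unchanged. Recovery at the low counts of RDY251 under IAA, where most genes were lower, was therefore not tested. No pair of replicate libraries agreed within sampling noise (lowest chi-square per degree of freedom 2.45).

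Members and gene lists were chosen with earlier results of these data known. The 5 members were always named. Of other intervals in the region the 3 with the most reads were named, of each list up to 3 called genes with the largest change, and of genes outside the repeat the 5 with the highest correlation. Alternatives were DESeq2 1.42.0, other scalings, no filter, fewer libraries, a replicate block, no multimapping reads and each library left out. Summing both annotated copies was added after seeing the data. Sequences were read from the R64 genome (RefSeq).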

Additional observations from a re-analysis of the deposited data

Results flagged for a closer look

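The IAA response of a strain differed from that of RDY234, by the interaction term of the edgeR fit (log2 scale, T>C reads), in 10 of 30 cases, all lower. Of all genes, 99% were called lower for RDY251, 92.8% for RDY249, 88.1% for RDY237, 69.8% for RDY247 and 0% each for RDY236 and RDY235. For RDY251 the difference was -4.56 for YLR154C-H, -3.01 for RDN25-2, -2.23 for RDN37-2, -2.12 for ETS2-2 and -1.34 for RDN18-1. For RDY249 it was -1.63 for RDN25-2, -1.33 for RDN37-2 and -1.03 for YLR154C-H. For RDY237 it was -1.36 for RDN25-2 and -2.12 for YLR154C-H, the latter a description, since the comparisons it is made of entered the choice. The median gene had -3.42 for RDY251, -1.75 for RDY249 and -1.56 for RDY237.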

How the results depend on the processing

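Scaling by S. cerevisiae library sizes (TMM) moved the results most: the median gene in RDY251 under IAA went to -0.13, against -3.48 by spike-in. Calls lower under IAA went to 0 in T>C reads (11 by spike-in) and 0 in total reads (4), calls between strains to 2 in T>C reads (8) and 2 in total reads (5), and differences of responses to 0 (10). Counts between strains, here and below, include RDY247 over RDY73 under DMSO, given above as a description only. By spike-in it holds 2 in T>C reads and 2 in total reads. The differences of responses and the T>C calls under IAA likewise include the described YLR154C-H in RDY237. Signs turned for 36 values. T>C changes under IAA became 1.35 for RDN18-1, 1.01 for ETS2-2, 0.57 for RDN37-2 and 0.092 for RDN25-2 in RDY237, 1.11 for YLR154C-H in RDY247, 1.29 for RDN18-1, 1.21 for YLR154C-H, 0.39 for RDN37-2 and 0.013 for RDN25-2 in RDY249, and 2.01 for RDN18-1, 1.30 for ETS2-2, 1.10 for RDN37-2 and 0.25 for RDN25-2 in RDY251. Differences of responses became 1.33 for RDN18-1 and 0.21 for RDN25-2 (RDY237), 0.73 for YLR154C-H, 0.43 for RDN37-2 and 0.13 for RDN25-2 (RDY249), and 2.0 for RDN18-1, 1.18 for ETS2-2, 1.14 for RDN37-2 and 0.37 for RDN25-2 (RDY251). RDY251 over RDY234 under IAA became 2.46 for RDN18-1, 1.90 for ETS2-2, 1.08 for RDN37-2, 0.47 for YLR154C-H and 0.19 for RDN25-2 in T>C reads, and 1.54 for ETS2-2, 1.38 for YLR154C-H, 0.56 for RDN37-2, 0.55 for RDN25-2 and 0.50 for RDN18-1 in total reads. Total reads of RDY251 under IAA became 0.51 for RDN18-1, 0.44 for RDN37-2, 0.39 for RDN25-2 and 0.23 for YLR154C-H.

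Leaving out each library gave 10 to 12 calls under IAA in T>C reads, 1 to 4 in total reads, 7 to 9 and 5 to 5 between strains, 9 to 11 differences of responses, 16 to 19 described differences of at least 2-fold and 17 to 19 lower T>C shares. The 1 call came without RDY251 DMSO replicate C or IAA replicate A. DESeq2 kept the call of 129 of 130 single results, all but the RDY249 response of YLR154C-H. Without multimapping reads YLR154C-H could not be tested. Same-lettered libraries correlated at -0.0746 to 0.124 in T>C reads and -0.160 to 0.300 in total reads, where the 3 pairs of RDY249 alone all passed 0.1 (0.136 to 0.300). The replicate block changed 1 call, the RDY237 response of RDN37-2 (-1.04), and no call of RDY249 in total reads. With the block the T>C change of YLR154C-H was 0.73 in RDY236 and -0.61 in RDY249, still below 2-fold. Summing both annotated copies lost 3 calls (10 under IAA in T>C reads, 3 in total reads, 7 between strains in T>C reads), and each of the other S. pombe scalings left 10 under IAA in T>C reads. ETS2-2 in IAA libraries, at 1 T>C read in the lowest, is limited by depth.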
